A study of Mus musculus with 48 samples.

Results

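The vastus lateralis, the large outer muscle of the thigh, was compared with the gastrocnemius, the calf muscle of the shank, in mouse embryos shortly before birth (E18.5). The 2 muscles were chosen by their labels as the pair of fast-biased muscles, 1 from each limb segment, and no measured value entered the choice. The comparison used 12 of the 48 libraries of the series, 6 of vastus lateralis and 6 of gastrocnemius, and paired them by the tag in the name of each count column. The other libraries used beside them were E18.5 vastus intermedius and E18.5 soleus, the slow-biased muscles of thigh and shank, adult vastus lateralis and adult gastrocnemius, and adult soleus, with 6 libraries in each group. All animals were untreated males of the inbred strain FVB/NJ with no engineered allele. Messenger RNA of whole muscle was sequenced, so every value sums over fibres, nerve, vessels and connective tissue. Each of the 6 tags of a stage is named here as a collection with a letter from A to F. At E18.5 the tags of C, D and E carry 1 date. The labels state that the muscles of a stage came from the same animals, and a collection was therefore taken as 1 embryo, so that p-values measure the spread between 6 embryos.

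A limb muscle is built by myogenic cells that migrate from the somites into a field of limb mesenchyme. Position along the limb is recorded in that mesenchyme by Hox genes, whose order on the chromosome follows the order of their domains from body to digit, and by T-box and other homeobox genes that mark limb type and the anterior, posterior and dorsal sides. Around birth the fibres replace embryonic and neonatal contractile proteins by adult ones, and fast and slow fibres take up different sets of myosins, troponins and calcium-handling proteins along with their metabolic enzymes. Fast fibres are known for the proteins of rapid calcium release and for glycolysis, slow fibres for the cardiac-type slow myosin and for oxidative metabolism.

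Totals lay between 20.9 and 29.7 M counts per library in vastus lateralis and between 21.4 and 31.2 M in gastrocnemius. The 20 most abundant genes took 15% to 18.4% of the counts in vastus lateralis and 12.2% to 14.7% in gastrocnemius. Skeletal muscle was met in every library by Acta1, skeletal muscle actin, which cannot check the muscle that a label names. Acta1 ranged over 14044, 18819 and 26560 CPM in vastus lateralis and 5313, 10091 and 12802 CPM in gastrocnemius. CPM are counts scaled to library size, given as the lowest, median and highest of 6 libraries. The first principal component of the 24 E18.5 libraries, with 21.4% of the variance, placed vastus lateralis between 8.9 and 29.6 and gastrocnemius between -26.2 and -7.5, without overlap. Collection B went against its labels. Of 165 genes that differed between vastus lateralis and vastus intermedius in the 10 libraries of the other 5 collections, 139 (84.2%) had the opposite sign in collection B. The labels were kept, and the library is called the library labelled vastus lateralis of collection B. Results without the collection are given for the main counts and for a part of the lists and genes. The gastrocnemius library of collection F stood apart in Schwann cell and myelin genes. The vastus lateralis library of collection E held genes of mature fat cells. Vastus lateralis of collection F had 1320 CPM of summed erythroid genes, against 109.6 to 201.5 CPM in the other 5 of its muscle.

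In all, 2537 of 15123 genes tested (16.8%) passed edgeR's quasi-likelihood test at an adjusted p of 0.05, of which 1579 (10.4%) were higher and 958 (6.33%) lower in vastus lateralis. Of these, 225 were more than 2-fold higher and 188 more than 2-fold lower. Without collection B, 2456 of 15151 genes (16.2%) passed, 1522 higher (10%) and 934 lower (6.16%). Leaving out collection C lowered the count the most, to 1676. Collections C, D and E alone, of 1 date, gave 868 genes, and A, B and F alone gave 706, with 3 embryos each. Among the genes named here and fitted, the largest fold in each direction was that of a limb position gene. Genes of fast contraction, of glycolysis and of the respiratory chain were higher in vastus lateralis, nearly throughout their lists. Of 11 Schwann cell genes 6 were lower, as were the receptor genes Grik2, Grik3 and Ntrk3. Below, levels are the lowest, median and highest TMM-scaled CPM of the 6 libraries, and fold changes are log2 values of vastus lateralis minus gastrocnemius with their standard error (SE, n = 6 embryos).

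The promoters of 4 genes that carry these differences are shown first, 1 of a fast sarcomere gene, 1 of a muscle translation factor and 2 of position genes. Each runs from 250 bases before to 50 bases after a start site given by RefSeq on build GRCm38.p6, which for Hoxd10 and Mybpc2 lies inside RefSeq's span of the gene and not at its end. Capitals mark each CANNTG, the E-box letters read by basic helix-loop-helix factors such as the myogenic factors and Hand2, on either strand since the letters are the same on both. Mybpc2 lies at chr7:44524620-44524919, minus strand, Eef1a2 at chr2:181156966-181157265, minus strand, Hoxd10 at chr2:74691641-74691940, plus strand, and Hand2 at chr8:57320733-57321032, plus strand.
Mybpc2: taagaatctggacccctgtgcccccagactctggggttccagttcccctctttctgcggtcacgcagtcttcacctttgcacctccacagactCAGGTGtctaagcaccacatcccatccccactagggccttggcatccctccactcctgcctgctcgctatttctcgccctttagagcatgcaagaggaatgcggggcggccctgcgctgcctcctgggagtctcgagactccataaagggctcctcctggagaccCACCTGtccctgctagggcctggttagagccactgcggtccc
Eef1a2: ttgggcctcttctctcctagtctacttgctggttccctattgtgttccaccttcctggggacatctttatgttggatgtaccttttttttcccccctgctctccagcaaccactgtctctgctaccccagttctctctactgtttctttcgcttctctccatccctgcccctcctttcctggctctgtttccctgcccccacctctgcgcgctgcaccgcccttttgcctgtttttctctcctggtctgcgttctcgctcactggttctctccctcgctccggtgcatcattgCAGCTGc
Hoxd10: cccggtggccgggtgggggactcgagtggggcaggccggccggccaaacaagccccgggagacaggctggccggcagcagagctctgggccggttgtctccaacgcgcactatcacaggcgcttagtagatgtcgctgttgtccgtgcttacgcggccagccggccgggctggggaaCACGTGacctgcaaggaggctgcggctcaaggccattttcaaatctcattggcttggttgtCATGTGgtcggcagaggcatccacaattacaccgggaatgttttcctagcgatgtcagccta
Hand2: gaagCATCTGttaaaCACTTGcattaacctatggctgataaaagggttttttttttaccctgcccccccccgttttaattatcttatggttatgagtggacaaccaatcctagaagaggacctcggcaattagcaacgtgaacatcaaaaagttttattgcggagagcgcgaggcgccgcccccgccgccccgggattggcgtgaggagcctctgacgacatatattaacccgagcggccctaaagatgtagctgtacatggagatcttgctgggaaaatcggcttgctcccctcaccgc
The letters were found in 2 places in the windows of Mybpc2, Hoxd10 and Hand2 and in 1 place in that of Eef1a2. They are common, being present in 23756 of all 32851 promoter windows (72.3%). Of the 15 genes with the largest positive fold, 8 had a promoter entry, with 11 windows, and 8 windows (72.7%) held the letters. Of the 15 genes with the largest negative fold, 10 had an entry, and again 8 of 11 windows (72.7%) held them.

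Position genes that mark limb type and the limb axes were among the 15 genes named for the largest positive folds. Tbx5 led these, and muscle genes such as Pvalb and Eef1a2 were mixed with the rest. Tbx5, a T-box factor best known for the forelimb, had 8.42, 10.8 and 13.9 CPM in vastus lateralis, against 0.129, 0.511 and 0.822 CPM in gastrocnemius. The groups did not overlap, and the log2 fold change was 4.41 ± 0.28 (adjusted p = 8.5e-06). Alx4, a homeobox factor of the anterior limb bud, had 12.1, 18.9 and 29.2 CPM in vastus lateralis and 1.41, 1.86 and 2.89 CPM in gastrocnemius, a log2 fold change of 3.29 ± 0.16 (adjusted p = 3.1e-06). Emx2, a homeobox factor of brain and urogenital tract that also acts in the limb girdles, had 3.83, 13.1 and 16 CPM in vastus lateralis and 1.09, 2.21 and 3.31 CPM in gastrocnemius (2.48 ± 0.36). Its lowest vastus lateralis value was that of collection B. Tbx1, a T-box factor known for head and pharyngeal muscles, had 4.95, 13.9 and 27.3 CPM in vastus lateralis and 0.235, 1.5 and 2.76 CPM in gastrocnemius (3.18 ± 0.50). All 4 were higher in 6 of 6 embryos, which the rule that named them required. Of all 2537 genes past the threshold, 2198 moved the same way in 6 of 6 embryos.

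Hand2 was the mirror image. This factor of the posterior limb bud, on chromosome 8 at 57320983 to 57324517, was at 0 counts in 5 of 6 vastus lateralis libraries and at 4.94, 6.39 and 8.59 CPM in gastrocnemius. Over the groups it had 4 counts in vastus lateralis and 945 in gastrocnemius, which is a gastrocnemius to vastus lateralis ratio of 259 with an exact 95% interval of 101 to 952 that covers counting error only. Isl1, a LIM homeobox factor of hindlimb bud and motor neurons, had 0, 0.0723 and 0.638 CPM in vastus lateralis and 2.28, 3.72 and 4.55 CPM in gastrocnemius (-4.56 ± 0.66, adjusted p = 0.00088). Lhx9, a LIM homeobox factor of the limb bud, had 83 counts in vastus lateralis and 0 in gastrocnemius. The exact 95% interval of its vastus lateralis to gastrocnemius ratio starts at 20.1 and covers counting error only. Of the 83 counts 36 came from collection B, and the gene was too low for the fit.

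Of the 29 tested limb position factors outside the Hox clusters, 7 were higher, 5 lower and 17 did not pass. Their median log2 fold change was -0.02, against -0.03 for all genes tested. Without collection B, 8 were higher and 4 lower. Smaller differences were seen for Pitx1, the homeobox factor of hindlimb identity, which had 16.6, 23.8 and 32.4 CPM in vastus lateralis and 11.2, 13.4 and 18.9 CPM in gastrocnemius (0.71 ± 0.11, adjusted p = 0.0011). Tbx4, the T-box factor of hindlimb outgrowth, was lower (-0.59 ± 0.15, adjusted p = 0.021), but its call was lost without collection C and without collection E. Eya1 and Eya2 encode transcriptional coactivators and moved apart. Eya1 was higher (0.54 ± 0.10), and Eya2, at 3.15, 7.73 and 14.3 CPM in vastus lateralis and 17.7, 19.6 and 22.9 CPM in gastrocnemius, was lower (-1.47 ± 0.24). Lmx1b, the dorsal limb factor, was higher by 1.35 ± 0.32 and lost its call without collection F.

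The Hox clusters separated by cluster and by place within the cluster. In HoxC, on chromosome 15, 6 of 8 tested genes were higher and 2 lower, and the summed cluster ran from 115 to 143 CPM in vastus lateralis and from 87.3 to 97.0 CPM in gastrocnemius. Hoxc6, at 17.9, 21.5 and 29.5 CPM in vastus lateralis and 5.52, 8.33 and 9.47 CPM in gastrocnemius, had the largest rise of the cluster (1.49 ± 0.10, adjusted p = 1.6e-05). Hoxc4, Hoxc5, Hoxc8, Hoxc9 and Hoxc10 were higher by 0.51 to 0.93, with Hoxc5 losing its call without collections A, B, D or F. The end of the cluster that patterns distal limb went the other way. Hoxc11, at 102954526 to 102956701, had 1.33, 1.8 and 4.86 CPM in vastus lateralis and 7.51, 9.36 and 10.4 CPM in gastrocnemius (-2.09 ± 0.24), and the neighbouring long noncoding RNA Hotair had 0.431, 0.505 and 3.09 CPM in vastus lateralis and 3.63, 5.37 and 6.9 CPM in gastrocnemius (-2.74 ± 0.35). In both genes the highest vastus lateralis value came from collection B. The strand setting of the counting is not known, so reads of Hotair and of overlapping Hox genes could not be told apart.

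HoxD, on chromosome 2, was the cluster with the most genes lower in vastus lateralis. Of 7 tested genes 5 were lower, none was higher, and Hoxd3 and Hoxd13 did not pass. The summed cluster took 14.6 to 23.6 CPM in vastus lateralis and 48.1 to 57.3 CPM in gastrocnemius, without overlap. Among those that passed, the log2 fold changes were -0.91 ± 0.19 for Hoxd4, -1.11 ± 0.13 for Hoxd8, -2.13 ± 0.26 for Hoxd9 and -4.51 ± 0.31 for Hoxd10. Hoxd10, whose group of genes patterns thigh and shank, was at 0.049, 0.28 and 0.578 CPM in vastus lateralis and 5.68, 6.61 and 10.5 CPM in gastrocnemius. Hoxd11, a shank patterning gene, was at 0 counts in 4 vastus lateralis libraries, at 0.578 CPM in collection A and 0.12 CPM in collection F, and at 4.12, 4.89 and 7.3 CPM in gastrocnemius.

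In HoxA, on chromosome 6, 4 of 12 tested genes were higher and 4 lower, and the summed cluster overlapped, at 67.5 to 124.7 CPM in vastus lateralis and 90.4 to 112.9 CPM in gastrocnemius. The higher genes were Hoxa3 (0.93 ± 0.19), Hoxa5 (1.15 ± 0.21), Hoxa6 (1.18 ± 0.27) and Hoxa7 (0.89 ± 0.15). The lower ones were Hoxa10 (-0.48 ± 0.09), Hoxa11 (-0.85 ± 0.19), its antisense transcript Hoxa11os (-0.89 ± 0.26) and Hoxa13 (-2.06 ± 0.59), the gene of the foot. Hoxa11os lost its call without collections A, B, D or E, and Hoxa13 without any of B to F. Without collection B, 5 HoxA genes were higher and 2 lower. None of the 8 tested HoxB genes passed.

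**Figure D1:**
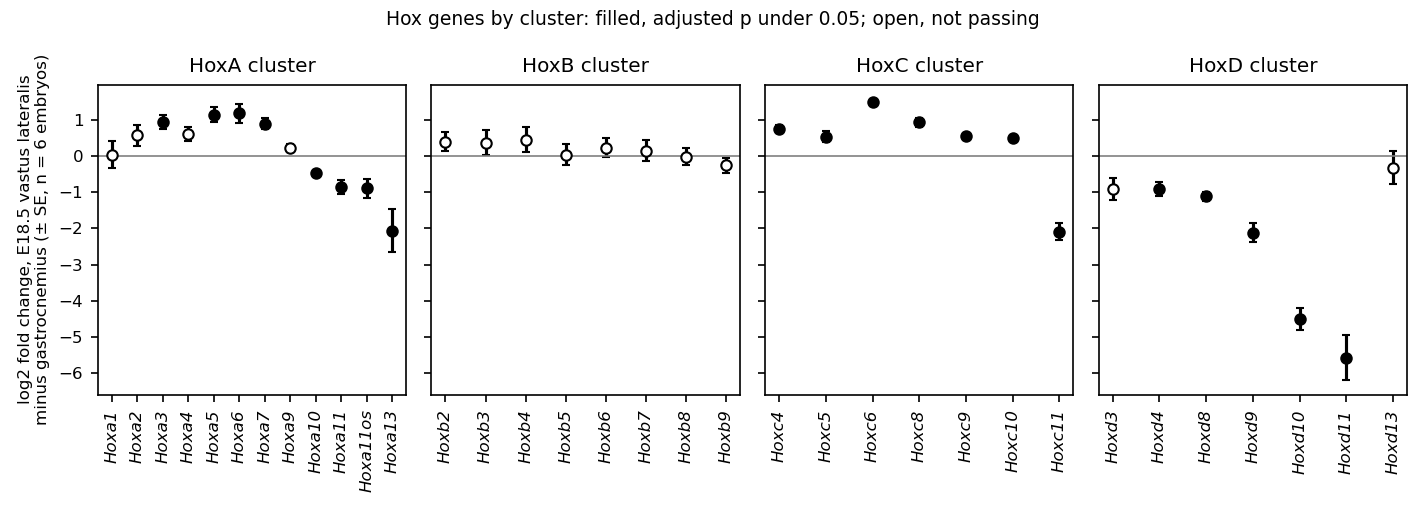
Log2 fold change of E18.5 vastus lateralis minus gastrocnemius for the tested protein-coding genes and Hoxa11os of the 4 Hox clusters, in the order of the cluster, with bars for ± SE (n = 6 embryos). Filled points have an adjusted p under 0.05, and Hoxd10 and Hoxd11 lie lowest, at -4.51 and -5.57.

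The genes of fast contraction were higher in vastus lateralis, 14 of 16 tested, with none lower and a median log2 fold change of 1.12 against -0.03 for all genes tested. Their summed level ran from 20210 to 35917 CPM in vastus lateralis and from 8646 to 17435 CPM in gastrocnemius, without overlap. Actn3, the actinin of fast Z-discs, had 57.1, 216 and 384 CPM in vastus lateralis and 5.99, 25.1 and 48.2 CPM in gastrocnemius (3.00 ± 0.15, adjusted p = 3.6e-06). Mybpc2, the fast myosin-binding protein C, had 73.1, 239 and 610 CPM in vastus lateralis and 7.81, 36.4 and 72.7 CPM in gastrocnemius (2.84 ± 0.23). The groups of Mybpc2 were parted by less than 1 CPM. Each embryo had the higher value in its vastus lateralis, which the rule that named the gene required. Pvalb, the calcium buffer parvalbumin, had 17.5, 90.9 and 157 CPM in vastus lateralis and 1.85, 8.49 and 14.7 CPM in gastrocnemius (3.31 ± 0.34).

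The calcium store and pump and the fast troponins moved less. Casq1, the calsequestrin of fast fibres, was higher by 1.45 ± 0.11, and Atp2a1, the fast calcium pump SERCA1, had 2797, 4257 and 5872 CPM in vastus lateralis and 1152, 1972 and 2478 CPM in gastrocnemius (1.12 ± 0.12). The fast troponins Tnni2 (1.11 ± 0.09), Tnnc2 (1.01 ± 0.09) and Tnnt3 (0.92 ± 0.10) and the regulatory light chain Mylpf (0.88 ± 0.10) were all higher in 6 of 6 embryos and without overlap. Moving the same way in 6 of 6 embryos was shared by 2198 of all 2537 genes past the threshold. Of the adult fast myosin heavy chains, Myh4, the IIb chain, was higher by 1.75 ± 0.20 and Myh2, the IIa chain, by 1.11 ± 0.10. Myh1, the IIx chain, had 41.5, 98.4 and 145 CPM in vastus lateralis and 63.7, 96.3 and 144 CPM in gastrocnemius and did not pass (-0.22 ± 0.20, adjusted p = 0.48). Myl1, the fast essential light chain, varied from 27.8 to 854 CPM in vastus lateralis and from 19.5 to 356 CPM in gastrocnemius and did not pass either (2.42 ± 1.21, adjusted p = 0.2). Near-identical stretches of myosin heavy chain genes, and of actin genes, leave the split of reads among them uncertain.

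**Figure D2:**
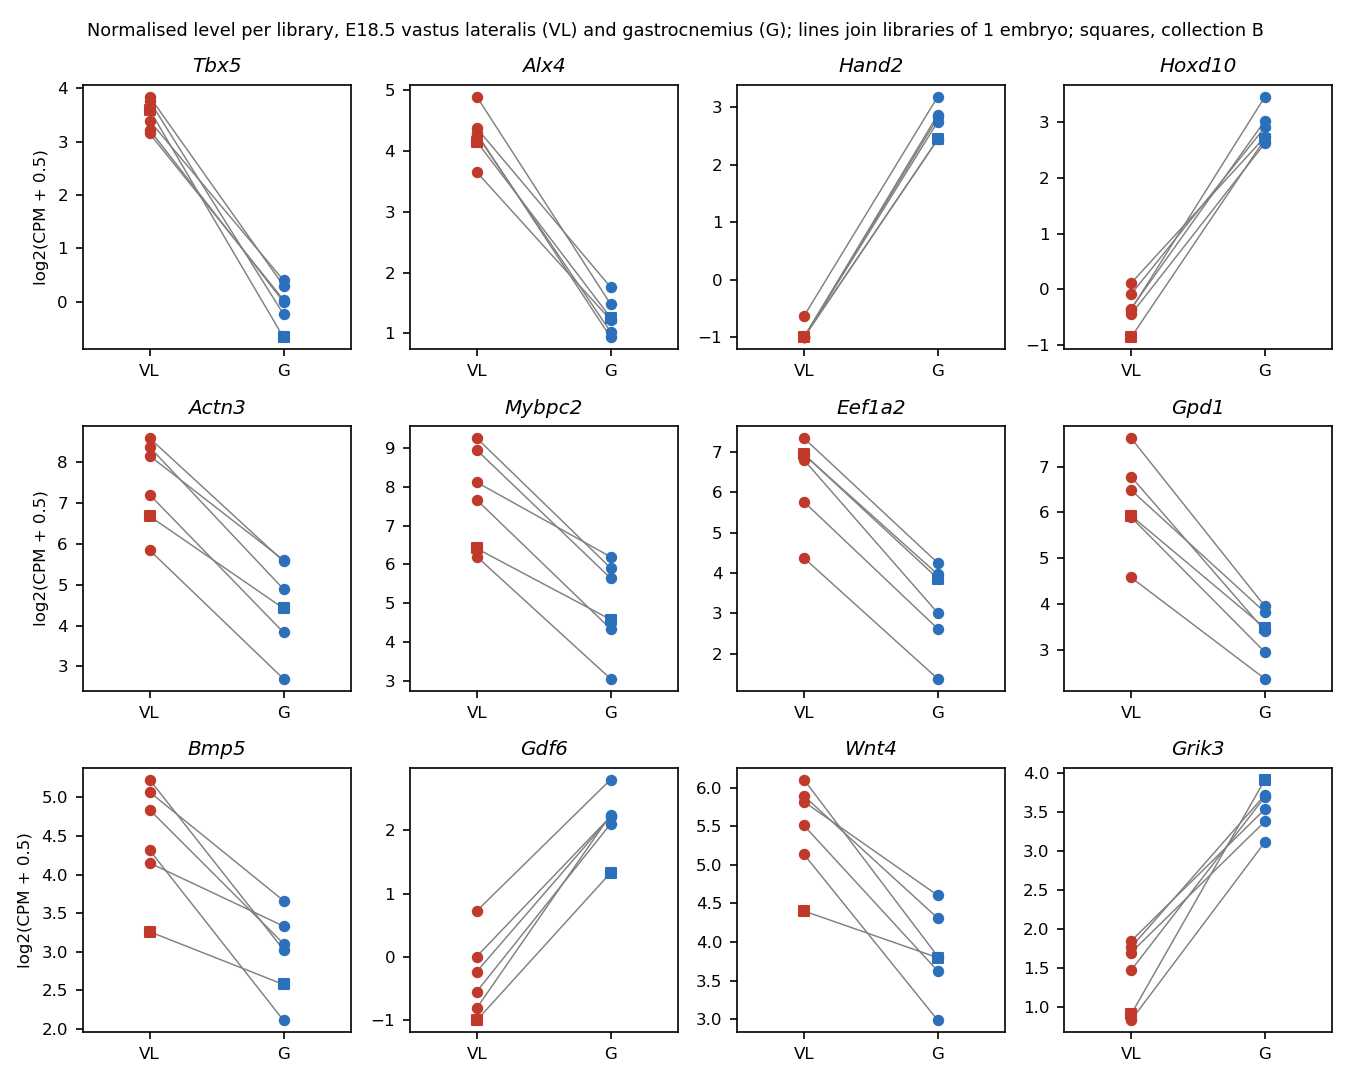
Level per library, as log2(CPM + 0.5), of 12 genes in E18.5 vastus lateralis (VL) and gastrocnemius (G), with lines joining the libraries of 1 embryo and squares for collection B. Tbx5, Alx4, Actn3, Mybpc2, Eef1a2, Gpd1, Bmp5 and Wnt4 lie higher in the vastus lateralis of every embryo, and Hand2, Hoxd10, Gdf6 and Grik3 lower.

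The slow sarcomere list was mixed, and collection B decided much of it. Of 16 tested genes 3 were higher and 5 lower, with a median of -0.45. Without collection B, 2 were higher and 9 lower, and the median was -0.70. With collection B kept and another collection left out, the lower genes numbered 1 or 2, and without the pairing of embryos 1. Myh7, the slow and cardiac myosin heavy chain, had 51, 98, 123, 189 and 241 CPM in 5 vastus lateralis libraries and 1591 CPM in the one labelled collection B, against 333, 659 and 763 CPM in gastrocnemius. Its log2 fold change was -1.66 ± 0.47 (adjusted p = 0.034) and, without collection B, -2.13 (adjusted p = 0.0015), where the 5 vastus lateralis libraries lay below all those of gastrocnemius. With collection B kept, the call was lost when any other single collection was left out. Myl3, the slow essential light chain, had -1.71 ± 0.43 with and -2.20 without collection B, and its call was lost without collection A, C, D or E.

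Tnnc1, the slow and cardiac troponin C (-1.03 ± 0.29), and Myl6b (-1.05 ± 0.29) also passed only while collections A and C to F were all kept. Myh7b, an ancient slow-type myosin, had 24.8, 51.6 and 128 CPM in vastus lateralis and 84.9, 158 and 211 CPM in gastrocnemius and kept its call in every leave-one-out fit (-1.50 ± 0.28). Among the slow troponins, Tnnt1 (-0.60 ± 0.21, adjusted p = 0.081) and Tnni1 (-0.27 ± 0.15, adjusted p = 0.26) did not pass. Higher in vastus lateralis were Casq2, the cardiac and slow calsequestrin, with 1738, 2136 and 2593 CPM against 835, 1289 and 1483 CPM in gastrocnemius (0.79 ± 0.09), Mybpc1, the slow myosin-binding protein C (0.75 ± 0.10), and Myoz2, a slow Z-disc protein (0.57 ± 0.16, adjusted p = 0.035; call lost without collection B, C, D or F).

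Of 12 developmental sarcomere genes 6 were higher and 1 lower. Myh8, the neonatal myosin heavy chain, had 13586, 21428 and 31172 CPM in vastus lateralis and 6784, 10146 and 12691 CPM in gastrocnemius (1.06 ± 0.13). Xirp2, an actin-binding protein of nascent and remodelled myofibrils, was higher by 1.94 ± 0.11 and skeletal actin Acta1 by 1.01 ± 0.12. Actc1, the cardiac actin of fetal muscle, was higher by 0.57 ± 0.12, whereas Tnnt2, the cardiac troponin T of fetal muscle, was lower (-0.51 ± 0.11).

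Shares of 6 myosin heavy chain genes in their summed read counts put this in 1 frame. Myh8 took 63.6% ± 10.8 (SD, n = 6) in vastus lateralis and 47.7% ± 5.90 in gastrocnemius, and Myh3, the embryonic chain, took 32.1% ± 9.77 in vastus lateralis and 47.3% ± 5.90 in gastrocnemius. Myh3 was lower in the vastus lateralis of 6 of 6 embryos, Myh8 higher in 5 of 6. Myh2 took 1.66% ± 0.184 in vastus lateralis and 1.21% ± 0.173 in gastrocnemius, and Myh4 took 1.16% ± 0.503 in vastus lateralis and 0.512% ± 0.0762 in gastrocnemius, each higher in 6 of 6 embryos. Myh1 took 0.261% ± 0.0973 in vastus lateralis and 0.461% ± 0.121 in gastrocnemius. Myh7 took 1.25% ± 2.05 in vastus lateralis and 2.81% ± 0.587 in gastrocnemius, and without collection B 0.42% ± 0.237 in vastus lateralis and 2.66% ± 0.516 in gastrocnemius (n = 5). In an exact two-sided sign-flip test over 6 embryos the smallest possible p is 0.03125, which Myh2, Myh4 and Myh3 reached, and none of the 6 passed after Benjamini-Hochberg adjustment (adjusted p = 0.0625 for these 3). With Myh6 and Myh7b added to the sum, 4 passed (adjusted p = 0.046875).

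**Figure D3:**
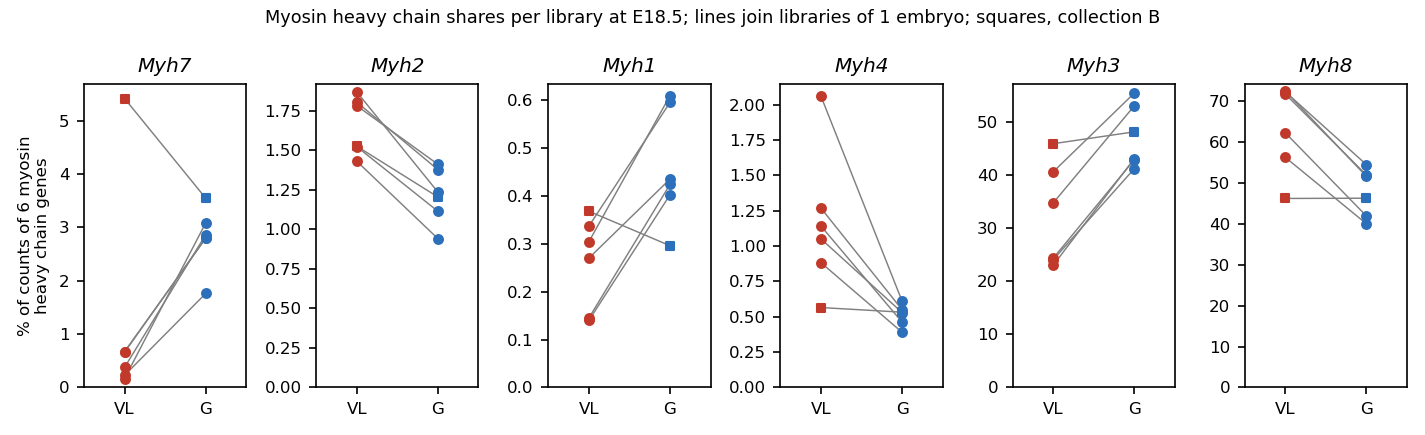
Share of each myosin heavy chain gene in the summed read counts of 6 such genes, in %, per E18.5 library of vastus lateralis (VL) and gastrocnemius (G), with lines joining libraries of 1 embryo and squares for collection B. The square at 5.42% of Myh7 in vastus lateralis stands above the other 5, which lie between 0.167% and 0.672%.

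Energy metabolism was higher in vastus lateralis on both the glycolytic and the oxidative side. Of 22 tested genes of glycolysis and glycogen 19 were higher and none lower, with a median of 0.62. Gpd1, the glycerol phosphate dehydrogenase that links glycolysis to the respiratory chain, had 23.5, 74.8 and 196 CPM in vastus lateralis and 4.67, 10.4 and 15 CPM in gastrocnemius (2.97 ± 0.17, adjusted p = 5.9e-06). Pygm, muscle glycogen phosphorylase, had 1045, 1650 and 2297 CPM in vastus lateralis and 384, 687 and 847 CPM in gastrocnemius (1.24 ± 0.13). Slc2a4, the insulin-regulated glucose transporter GLUT4, was higher by 0.98 ± 0.11 and Slc16a3, the lactate exporter, by 0.82 ± 0.08.

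Of 25 genes of oxidative phosphorylation 24 were higher and none lower, with a median of 0.57. Their summed level was 6803 to 9609 CPM in vastus lateralis and 4487 to 6478 CPM in gastrocnemius. Cycs, cytochrome c, had 137, 238 and 284 CPM in vastus lateralis and 68.4, 93.8 and 123 CPM in gastrocnemius (1.14 ± 0.09). Cox7a1, the muscle isoform of a cytochrome oxidase subunit, had 8.42, 18 and 25.6 CPM in vastus lateralis and 2.44, 4.68 and 7.78 CPM in gastrocnemius (1.82 ± 0.16), while its widely expressed paralog Cox7a2 had 1.36, 1.76 and 2.57 CPM in vastus lateralis and 1.01, 1.36 and 2.17 CPM in gastrocnemius and did not pass (0.39 ± 0.28). The counts of Cox7a2 are low, and reads of such paralogs may be split in the counting. Of 18 genes of fatty acid use 10 were higher, none lower and 8 did not pass (median 0.54). Lpl, the lipase of vessel walls, was higher by 0.80 ± 0.07 and Acsl1, which activates fatty acids, by 1.10 ± 0.10.

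Regulators of fibre type went along in part, with 8 of 28 higher and 2 lower. Ppara, a receptor that drives fatty acid oxidation, had 67.5, 98.3 and 122 CPM in vastus lateralis and 26.6, 61.6 and 73.5 CPM in gastrocnemius (0.83 ± 0.11), and its coactivator Ppargc1a was higher by 0.64 ± 0.11. Mafa, a large Maf factor reported to act in fast IIb fibres, was higher by 1.11 ± 0.21. Dio2, the enzyme that activates thyroid hormone, was higher by 0.90 ± 0.19, with its highest value, 26 CPM, in collection B. Sox6, a repressor of slow genes, was higher by 0.44 ± 0.10, and Prox1, a factor of slow fibres, was lower by -0.64 ± 0.15 and lost its call without collection C.

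Among satellite cell and myogenic factors 2 of 16 were higher and 3 lower. Myf6, the myogenic factor of differentiated fibres, had 87, 100 and 124 CPM in vastus lateralis and 41.8, 61.9 and 76.9 CPM in gastrocnemius (0.78 ± 0.10), and Des, desmin, was higher by 0.81 ± 0.10. Myod1, the factor of myoblast commitment, was lower by -0.45 ± 0.11, a call lost without collection A, B or E. Cdh4, a cadherin of myoblasts, was lower by -1.01 ± 0.16. Pax7, which marks the stem cells of muscle, had 25.2, 38.9 and 48.9 CPM in vastus lateralis and 37.7, 45.8 and 49.1 CPM in gastrocnemius and did not pass (-0.25 ± 0.11, adjusted p = 0.15). Of 24 cell cycle genes 1 passed, Ccnd2 (-0.34 ± 0.10), a call lost without collection B, C, D or F.

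At the neuromuscular junction 1 of 14 genes was higher and 1 lower. Chrne, the acetylcholine receptor subunit that replaces the fetal subunit after birth, had 0.518, 0.977 and 1.5 CPM in vastus lateralis and 0.117, 0.356 and 0.525 CPM in gastrocnemius (1.66 ± 0.31, adjusted p = 0.0039). Lrp4, the agrin receptor, was lower by -0.33 ± 0.09 and lost its call without collection A, B, E or F. Of 6 tested muscle spindle genes 2 were lower, Egr3 (-0.94 ± 0.23), a factor that spindles need, and Etv1 (-0.27 ± 0.08), whose call was lost without any of B to F.

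Further genes that the naming rule gave as higher in vastus lateralis, among those of at least 5 CPM in the higher muscle, included a pair of muscle-specific translation components. Eef1a2, the elongation factor isoform of mature muscle and neurons, had 20.2, 116 and 161 CPM in vastus lateralis and a lowest value of 2.11 and a median of 10.8 CPM in gastrocnemius, without overlap (3.26 ± 0.11, adjusted p = 7.2e-08). Rpl3l, the muscle paralog of a ribosomal protein, had 4.31, 17.2 and 25.8 CPM in vastus lateralis and 0.352, 1.65 and 3.29 CPM in gastrocnemius (3.17 ± 0.18). Aqp4, the water channel of fast fibre membranes, was higher by 3.05 ± 0.26, Slc18a1, a vesicular monoamine transporter, by 3.27 ± 0.28, Cacna1i, a T-type calcium channel, by 2.78 ± 0.42, and Tmem52 by 2.50 ± 0.18. S100a9, a neutrophil protein, passed with 2.68 ± 0.63, but the library labelled collection B held 51.7 CPM against 0.705 to 8.46 CPM in the other 5 of vastus lateralis, and the log2 fold change without it was 1.85.

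Other genes that the same rule gave as lower in vastus lateralis follow. Grik3 and Grik2 encode kainate-type glutamate receptor subunits. Grik3 had 1.28, 2.51 and 3.1 CPM in vastus lateralis and 8.19, 11.8 and 14.6 CPM in gastrocnemius (-2.36 ± 0.20, adjusted p = 5.8e-05), and Grik2 had 0.509, 1.01 and 2.06 CPM in vastus lateralis and 3.57, 5.21 and 7.25 CPM in gastrocnemius (-2.24 ± 0.25). Ntrk3, the receptor of neurotrophin-3, had 2.28, 3.05 and 5.6 CPM in vastus lateralis and 10.4, 14.4 and 21.4 CPM in gastrocnemius (-2.10 ± 0.26). The groups did not overlap in these 3 genes, which the rule had picked for large folds in the same direction in 6 of 6 embryos. Nrn1, neuritin, was lower (-2.45 ± 0.32), as were Dbx1, a homeobox factor of the neural tube (-2.66 ± 0.44), Col8a1, a type VIII collagen (-2.55 ± 0.31), Nova1, a splicing factor of neurons (-1.83 ± 0.35), Sertm2 (-1.94 ± 0.38) and Mal, a myelin protein (-2.05 ± 0.51). Mal reached 31.5 CPM in the gastrocnemius of collection F, against 3.51 to 9.15 CPM in the other 5, and lost its call without collection C.

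Most signalling lists held genes moving both ways, with more lower than higher in those of axon guidance, retinoic acid and BMP. Of all genes tested, 10.4% were higher and 6.33% lower. In the BMP list 3 of 21 were higher and 5 lower. Gdf6, a BMP-family ligand of joints, had 0, 0.269 and 1.16 CPM in vastus lateralis and 2.02, 4.16 and 6.48 CPM in gastrocnemius (-3.69 ± 0.42, adjusted p = 0.00023). The ligands Bmp5 and Bmp7 moved apart, with Bmp5 at 9.07, 23.8 and 37.1 CPM in vastus lateralis and 3.81, 7.87 and 12.2 CPM in gastrocnemius (1.58 ± 0.21) and Bmp7 at 0.971, 3.39 and 5.95 CPM in vastus lateralis and 7.43, 10.2 and 14.4 CPM in gastrocnemius (-1.80 ± 0.28). Of the secreted modulators, Bmper was lower (-1.08 ± 0.16). Fst, which binds activin and myostatin, was higher by 0.71 ± 0.22, a call lost without any one of collections A and C to F and kept without B (0.97). In the myostatin and activin list 2 of 14 were lower, among them the receptor Acvr2a (-0.41 ± 0.09).

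In the Wnt list 5 of 33 were higher and 5 lower. Wnt4 had 20.6, 50.5 and 68.3 CPM in vastus lateralis and 7.42, 13.5 and 23.8 CPM in gastrocnemius (1.66 ± 0.19), and Wnt11 was higher by 1.18 ± 0.15. Frzb, a secreted Wnt inhibitor, was higher by 0.93 ± 0.09. None of 18 FGF ligands and receptors passed. In the axon guidance list 2 of 34 were higher and 9 lower. Without collection B 2 were higher and 6 lower, and without collection C 1 was higher and 5 lower. The semaphorin receptor Plxna4 was higher by 1.11 ± 0.09, whereas the guidance ligand Slit2 (-1.24 ± 0.23) and the netrin receptor Unc5c (-1.99 ± 0.35) were lower. Of 13 retinoic acid genes 1 was higher, the binding protein Crabp1 (0.58 ± 0.12), and 4 were lower, among them Aldh1a3, which makes retinoic acid, with 11.8, 14.8 and 37.1 CPM in vastus lateralis and 37, 38.4 and 47.8 CPM in gastrocnemius (-1.24 ± 0.17). Of 19 insulin-like growth factor and imprinted genes 2 were higher and 1 lower. Igfbp3, a binding protein, was lower (-0.46 ± 0.07), the imprinted H19 was higher (0.39 ± 0.08), and Igf2, the fetal growth factor, did not pass (0.17 ± 0.08, adjusted p = 0.18). Of 15 immediate early genes 3 were higher, with Nr4a1 at 0.74 ± 0.11.

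Markers of other cells were read over whole lists, since in bulk muscle fewer cells of a type and less RNA per cell cannot be told apart. Schwann cell genes were lower in vastus lateralis, 6 of 11 with none higher, and their sum ran from 480 to 551 CPM in vastus lateralis and from 545 to 692 CPM in gastrocnemius. Sox10, the factor of Schwann cells, had 8.02, 9.97 and 12.6 CPM in vastus lateralis and 14.6, 15.5 and 23.4 CPM in gastrocnemius (-0.70 ± 0.12). Mbp, myelin basic protein (-1.71 ± 0.47), was highest in the gastrocnemius of collection F, at 41.5 CPM, against at most 11.6 CPM in the other 5, and its call was lost without collection C or D. Without collection C, 3 genes of the list were lower. Of 8 tested neuron genes 2 were lower, Nefm and Isl1, the second of which is also in the limb list, and Chat was at 0 counts in all 12 libraries. How far nerve tissue takes part in the lower guidance, glutamate receptor and neurotrophin receptor genes was not tested.

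Tendon cells gave 2 of 12 genes lower, Scx (-0.60 ± 0.15) and Mkx (-1.13 ± 0.34), both lost in 4 or more of the 6 leave-one-out fits. Fibroblasts gave 1 of 17 higher, Lum (0.89 ± 0.18), and 1 lower, with sums of 15295 to 34223 CPM in vastus lateralis and 18348 to 27832 CPM in gastrocnemius. Endothelial cells gave 1 of 13 lower, Vwf (-1.09 ± 0.31), which lost its call without any collection but D, and without collection B the list had none. Pericytes and smooth muscle gave 2 of 12 higher, and their sum, 2836 to 4208 CPM in vastus lateralis and 1757 to 2716 CPM in gastrocnemius, includes Des, which muscle fibres make. Leukocytes gave 1 of 15 higher, S100a9, erythroid cells 0 of 5, cartilage and bone cells 1 of 15 higher, Phex (0.76 ± 0.14), and 1 lower, with Mepe at 0 counts in all libraries. Epidermis gave 1 of 4 higher, Perp, whose call was lost without collection B, C, D or E, with Flg and Dsg3 at 0 counts in all 12 libraries.

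Fat cell markers sat in 1 library. Adipoq, the adiponectin of mature fat cells, had 529 counts in vastus lateralis, 509 of them in collection E, and 1 count in gastrocnemius. Plin1 had 411 counts in vastus lateralis, 402 of them in collection E, and 8 in gastrocnemius, and Lep, Retn, Cfd and Adig were at 0 counts in all gastrocnemius libraries. In the list of 5 tested fat cell genes 2 were higher, Plin4 (2.21 ± 0.18) and Car3 (0.85 ± 0.13), both of which muscle fibres also express. Plin4 had 5.26 to 82.2 CPM in vastus lateralis with its highest value in collection B, not E. The share of fat cells in the higher genes of fatty acid use was not tested.

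**Figure D4:**
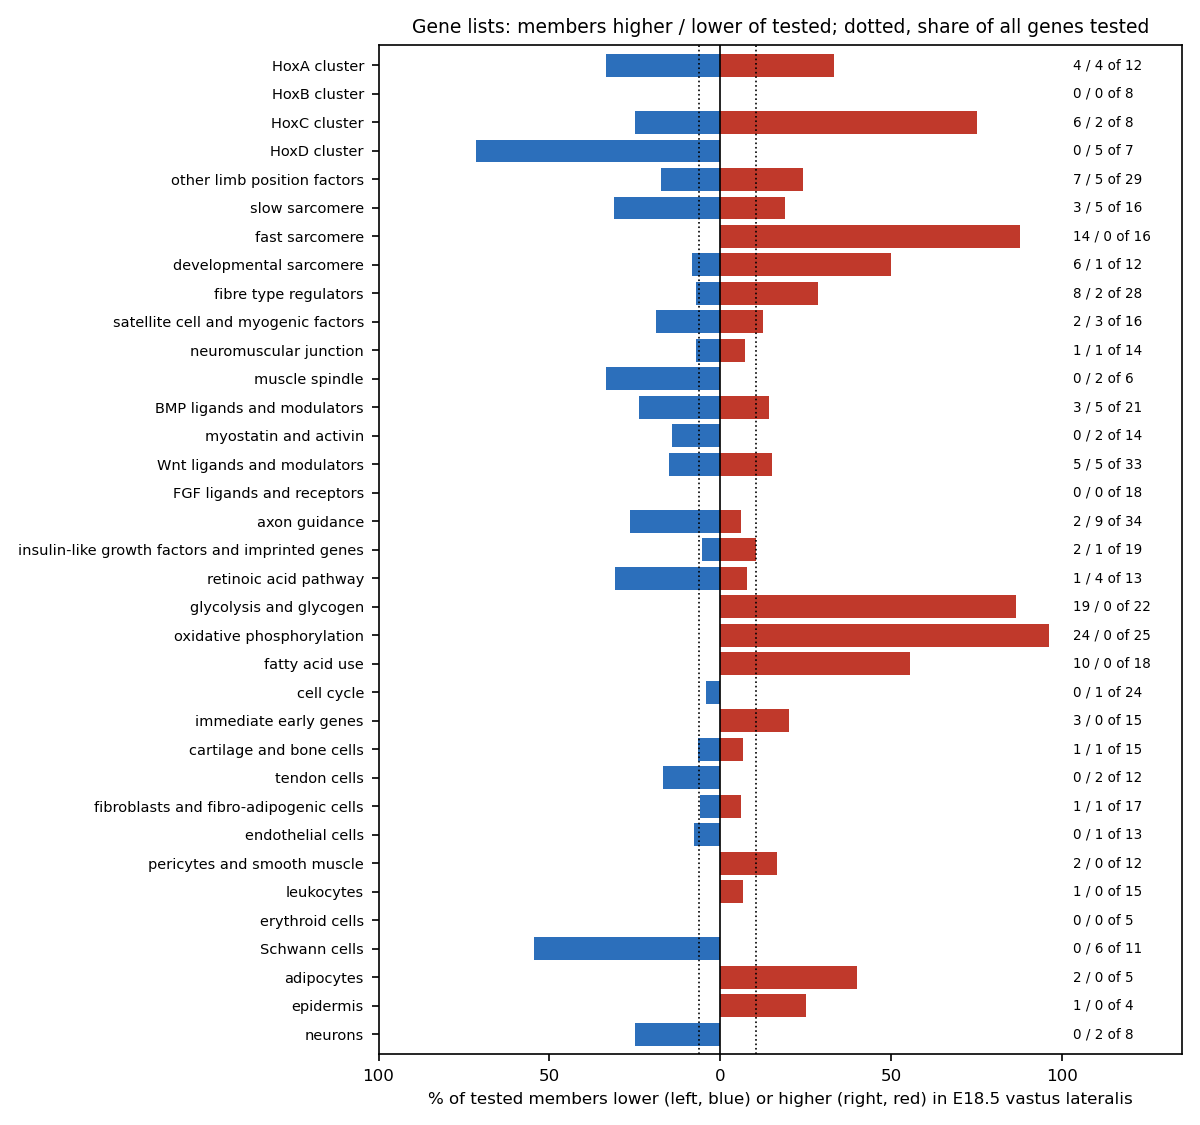
Share of tested members that were higher (right) or lower (left) in E18.5 vastus lateralis than in gastrocnemius, for 35 gene lists, with the counts beside each bar. Dotted lines mark the shares of all genes tested, 10.4% higher and 6.33% lower, and the respiratory, fast sarcomere and glycolysis bars reach farthest to the right.

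The slow-biased muscles of the same embryos gave a second thigh to shank comparison in libraries that the first did not use. Vastus intermedius minus soleus gave 1492 of 15056 genes (9.91%), 1096 higher and 396 lower, without collection B 842 of 15097 (5.58%), and without collection A 801 or D 951. Of 14876 genes tested in both, 1116 passed in both, and the 1114 with the same sign made up 44.2% of the genes called in the fast-biased pair and 74.9% of those called in the slow-biased pair. Without collection B, 688 passed in both, and the 686 with the same sign made up 28.2% and 81.6%. The libraries differ but the embryos are the same, and the collection B labels touch both pairs. Vastus intermedius of collection F was also low in slow genes. It had 56.8 CPM of Myh7, against 780 to 3358 CPM in that of collections A, C, D and E. The library labelled vastus intermedius of collection B, which went against its labels, was lower still, at 14.4 CPM. Without collection F the slow-biased pair gave 1094 genes, and the part of its vastus intermedius library was not tested further. In vastus intermedius minus soleus, the fast sarcomere list had 14 of 16 genes higher, oxidative phosphorylation 24 of 25, and the HoxD cluster 4 of 7 lower. Without collection B the counts were 9 higher in the fast sarcomere list, 22 higher in oxidative phosphorylation and 4 lower in HoxD. Tbx5 had a log2 fold change of 5.36 there, Actn3 of 2.93 and Hoxd10 of -3.94, all past the threshold.

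The difference between the pairs was tested in 1 model of 24 libraries. It passed for 2 of 15751 genes (0.0127%) by edgeR, with 922 genes at an unadjusted p under 0.05, and for 8 without collection B. Grik3 fell by 2.36 in the fast-biased pair and had -0.27 in the slow-biased pair, a difference of -2.11 ± 0.33 (adjusted p = 0.03). Pla1a, a phospholipase, had -0.91 in the fast-biased pair and 0.79 in the slow-biased pair, a difference of -1.70 ± 0.25 (adjusted p = 0.027). Neither passed without the replicate block, where none of the 15751 did. For Schwann cell genes, 6 of 11 lower in the fast-biased pair and 0 in the slow-biased pair, and for Bmp5 (1.58 and -0.15; adjusted p of the difference 0.25), no difference between the pairs passed.

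In adults the same muscles differed in fewer genes, 669 of 13000 tested (5.15%), 297 higher and 372 lower in vastus lateralis. The adult count was 276 without adult collection E, 277 without B, 374 without C and 403 without F. Of 12718 genes tested at both stages 240 passed in both, and the 149 with the same sign made up 6.62% of the genes called at E18.5 and 22.9% of those called in adults. Some position genes kept their direction. Adult Tbx5 had 0.743, 1.42 and 2.83 CPM in vastus lateralis and 0, 0.0728 and 0.232 CPM in gastrocnemius (3.87 ± 0.50), adult Tbx1 had 18.7, 29.1 and 32.8 CPM in vastus lateralis and 0.404, 2.79 and 8.72 CPM in gastrocnemius (3.24), and adult Hoxd10 had 0.446, 1.12 and 1.74 CPM in vastus lateralis and 4.98, 7.44 and 8.63 CPM in gastrocnemius (-2.69). Of the HoxC genes 3 were higher and 2 lower in adult vastus lateralis and of the HoxD genes 4 were lower. Of 10 tested HoxA genes 0 were higher and 1 lower in adults, and the stage difference passed for Hoxa5 (1.52) and Hoxa6 (2.04). Alx4, at 0.211, 0.817 and 1.05 CPM in adult vastus lateralis and 0.33, 0.881 and 1.44 CPM in adult gastrocnemius, had no adult difference past the threshold (-0.36 ± 0.37), and its stage difference, E18.5 minus adult, was 3.66 ± 0.34 (adjusted p = 7.2e-06).

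The stage difference of the vastus lateralis minus gastrocnemius fold passed for 1458 of 15506 genes (9.40%), 1192 positive and 266 negative, and for 1360 of 15590 (8.72%) without E18.5 collection B. Adult gastrocnemius of collections A and D stood apart in slow sarcomere genes, with 17.9 and 9.75 CPM of Myh7 where the other 4 had 463 to 933 CPM. The adult results were therefore also fitted without both collections, a choice made after seeing the data. Oxidative phosphorylation had 23 of 25 genes with a positive stage difference, and in adults none of its genes passed with all 6 collections, while 10 were lower in adult vastus lateralis without collections A and D. Cycs had 191, 243 and 280 CPM in adult vastus lateralis and 215, 260 and 296 CPM in adult gastrocnemius. The fast sarcomere list had 12 of 16 positive, glycolysis 12 of 22 and fatty acid use 13 of 18, with 4 higher and 2 lower, 0 higher and 2 lower, and 0 higher and 3 lower genes in adults. Without adult collections A and D those were 5 higher and 2 lower, 0 higher and 2 lower, and 0 higher and 12 lower. Eef1a2, 3.26 at E18.5, had 1531, 1639 and 2879 CPM in adult vastus lateralis and 1412, 1623 and 1738 CPM in adult gastrocnemius (0.23 ± 0.11, not passing), a stage difference of 3.05 ± 0.17.

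The slow sarcomere list had 15 of 16 positive stage differences, and 14 of its genes were lower in adult vastus lateralis, with a median of -6.79, or of -8.05 with 14 lower without adult collections A and D. Adult Myh7 was at 0 in 3 libraries of vastus lateralis, at 6.12 CPM in the highest, and at 9.75, 491 and 933 CPM in gastrocnemius, a stage difference of 7.56 ± 1.59. Myoz2 (8.47 ± 0.75), Myl2 (7.64 ± 1.33), Myl3 (7.40 ± 1.06) and Tnni1 (7.34 ± 0.80) had the other largest positive differences. Their adult vastus lateralis values lie close to 0, so the size of these folds depends on the few counts there. Casq2 was higher at E18.5 (0.79) and lower in adults (-1.76 ± 0.27, with 3.76, 4.89 and 8.04 CPM in vastus lateralis and 6.2, 22.1 and 34.5 CPM in gastrocnemius). Myh2 turned likewise, at 1.11 at E18.5 and -4.39 ± 0.47 in adults, where it had 64.2, 89.5 and 144 CPM in vastus lateralis and 472, 2647 and 4566 CPM in gastrocnemius. Its 2 lowest adult gastrocnemius libraries were also those of collections A and D, at 472 and 659 CPM, and without them the adult log2 fold change was -5.21 ± 0.19. Their part in the adult differences was not tested otherwise.

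Aqp4 was higher at E18.5 (3.05) and lower in adults (-1.42 ± 0.25), with 3.43, 5.64 and 7.71 CPM in adult vastus lateralis and 5.4, 13.4 and 40.4 CPM in adult gastrocnemius. Tmem132b turned the other way. It had 0, 0.0897 and 0.392 CPM at E18.5 in vastus lateralis and 1.12, 2.24 and 3.32 CPM in gastrocnemius (-4.12), and in adults 6.18, 8.24 and 13.5 CPM in vastus lateralis and 0.0398, 0.399 and 1.21 CPM in gastrocnemius (4.47), a stage difference of -8.55 ± 0.75 (adjusted p = 5e-06). The other largest negative stage differences were those of Dcx (-4.85), Myo16 (-4.44) and Vat1l (-3.38), of which Dcx and Myo16 were near 0 in adults, and of Kcns1 (-4.56), whose call was lost without E18.5 collection B (adjusted p = 0.059). Actc1 was higher at both stages, by 0.57 at E18.5 and 2.49 ± 0.45 in adults, a stage difference of -1.90 whose call was lost without E18.5 collection B (adjusted p = 0.052).

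**Figure D5:**
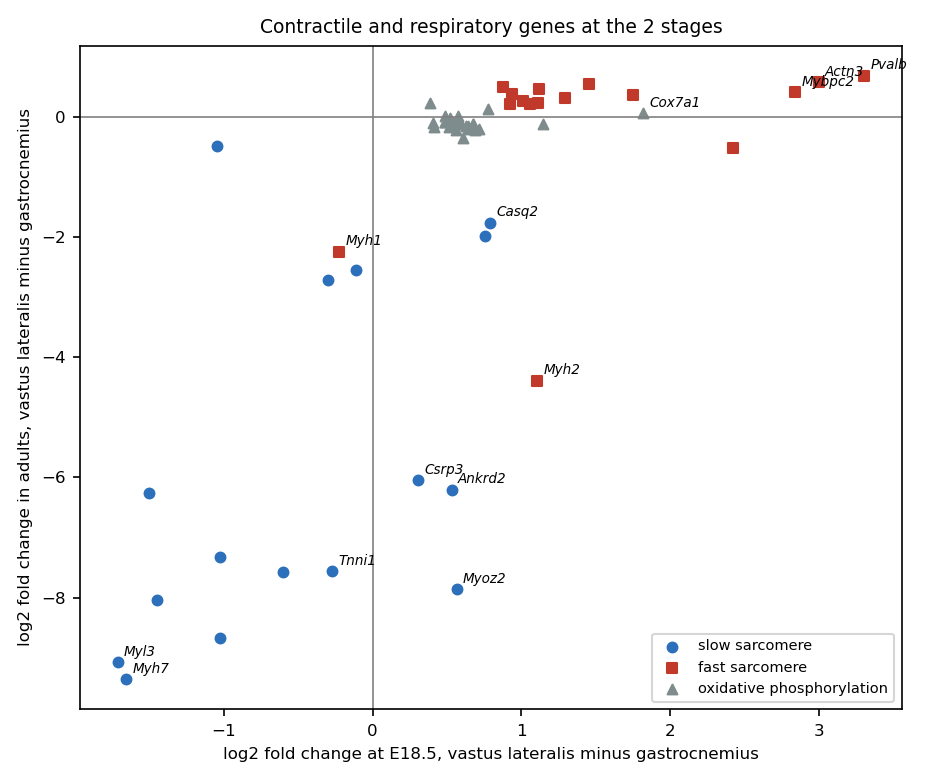
Log2 fold change of vastus lateralis minus gastrocnemius at E18.5 (horizontal) and in adults (vertical) for the slow sarcomere, fast sarcomere and oxidative phosphorylation genes tested at both stages. Oxidative phosphorylation genes lie right of 0 at E18.5 and near 0 in adults, and slow sarcomere genes reach down to -9.35 in adults.

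The genes called between the muscles were also read in soleus, whose libraries the comparison did not use, as adult minus E18.5. This was chosen after the data had been seen. With age 36.3% of 14865 genes tested were higher in soleus and 39.7% lower. Of the 1551 genes higher in E18.5 vastus lateralis that were tested there, 1153 (74.3%) were higher in adult soleus and 224 (14.4%) lower, and the 1153 made up 22.5% of the genes higher in adult soleus. Of the 933 genes lower in vastus lateralis, 101 (10.8%) were higher in adult soleus and 698 (74.8%) lower, and the 698 made up 11.9% of the genes lower in adult soleus. Over all 14521 genes tested in both, 35.2% were higher in adult soleus and 40.5% lower. Without collection B the shares were 72.4% higher and 16.5% lower for the genes higher in vastus lateralis, and 13.2% higher and 70.3% lower for those lower in it. Eef1a2 (6.68), Rpl3l (7.26), Cox7a1 (4.99) and Slc2a4 (4.22) were higher in adult soleus and Cdh4 (-4.53), Dcx (-8.47) and Myod1 (-3.32) lower. Among the exceptions were Myh8 (-8.82), Actc1 (-7.56), Slc18a1 (-4.36) and Alx4 (-2.14), higher in E18.5 vastus lateralis and lower in adult soleus. Nova1, lower in E18.5 vastus lateralis, was higher in adult soleus (2.07).

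The authors' deposited table for E18.5 thigh against shank rests on these libraries and those of the slow-biased pair and is no independent check. The authors' deposited table lists log2 fold changes of 4.77 for Tbx5, -8.78 for Hand2, -4.15 for Hoxd10, 3.07 for Actn3 and 3.03 for Mybpc2. Of the 2537 genes called here, 2173 were also called there, all with the same sign. Named genes called here but not there included Tbx1 (1.24 there), Bmp5 (0.61), Fst (0.10), Pitx1 (-0.04), Slit2 (-0.13), Unc5c (-0.71) and Mal (-0.79).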

How the data were processed

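Messenger RNA of whole muscle was sequenced with random-primed libraries, per the labels' protocols. The authors deposited whole-number counts per gene, and tables of their own comparisons with log2 fold changes and p-values. The submitters' processing notes name STAR 2.7.11 and the mm10 build, featureCounts from Subread 2.0.6, the read tools Trimmomatic 0.39.0 and FastQC 0.11.5, and DESeq2 1.44.0. The annotation and strand setting of the counting were not given in the sources used here. Each count column was matched to a group by the stage and muscle in its name, which gives no animal number, and 0 columns were left unused.

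Counts were fitted in R 4.3.3 with edgeR 4.0.16 (quasi-likelihood test, TMM scaling, filterByExpr), with the collection as a block and Benjamini-Hochberg adjustment over all genes tested at 0.05. The stage and pair differences are interaction contrasts. Alternatives used DESeq2 1.42.0, limma 3.58.1 (voom), other scalings, no filter, no block and each collection left out, and the fits were tested on simulated data. CPM are scaled within the 12 libraries of a comparison, so those of vastus intermedius were scaled apart from those of E18.5 vastus lateralis and gastrocnemius. The named genes are the 15 with the largest fold in each direction among those past the threshold, moving the same way in 6 of 6 embryos, with a mean of at least 5 CPM in the higher muscle and a symbol that is no clone or locus number. Others are list members, by adjusted p or as defining members, and the 5 largest stage or pair differences in each direction. The members and lists were chosen with earlier results of these data known.

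The pairing of libraries rests on the labels, which put the muscles of a stage in the same animals, and on the tags of the column names. Deviations of same-tagged libraries from their group means had correlations of 0.0577 to 0.443 (mean 0.21), against a mean of -0.0416 between tags, and 2 of 6 libraries correlated best with their own tag. No pair of libraries of 1 group agreed within sampling noise, the chi-square over its degrees of freedom being 10.76 or more. Some genes of the lists are counted but not reported here by name. Promoters are RefSeq entries on GRCm38.p6. Intervals cover counting error only.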

Additional observations from a re-analysis of the deposited data

Results flagged for a closer look

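A single library stood far from the other 5 of its muscle in 29 of 286 groups looked at, by Dixon's criterion for 6 values, which chance meets in about 1 of 20 groups. The library labelled E18.5 vastus lateralis of collection B accounted for 15 of them. Its levels, in CPM, were 51.7 for S100a9 (others 0.705 to 8.46), 3.83 for Emx2 (others 12.7 to 16), 4.86 for Hoxc11 (others 1.33 to 2.64), 3.09 for Hotair (others 0.431 to 1.08), 763 for Myoz2 (others 265 to 375), 415 for Myl2 (others 5.1 to 36.3), 1590 for Myh7 (others 51 to 241), 368 for Myl3 (others 11.7 to 30.5), 10.4 for Hoxc5 (others 5.69 to 7.32), 245 for Myl6b (others 39.1 to 80.6), 437 for Tnnc1 (others 65.2 to 163), 946 for Tnnt1 (others 233 to 425), 26 for Dio2 (others 9.75 to 15.1) and 37.1 for Aldh1a3 (others 11.8 to 17.2). Its Myh7 share of 5.42% stood against 0.167% to 0.672% in the others. The gastrocnemius library of collection F accounted for 8, with levels in CPM of 31.5 for Mal (others 3.51 to 9.15), 212 for Dcx (others 79.6 to 115), 29.8 for Etv1 (others 19.8 to 23.2), 76.5 for Acvr2a (others 47.7 to 57.4), 15.1 for Slc2a4 (others 23.3 to 26.9), 41.5 for Mbp (others 4.43 to 11.6), 23.4 for Sox10 (others 14.6 to 17.5) and 18.1 for Phex (others 7.39 to 11.3). The remaining libraries were the gastrocnemius of collection C for S100a9 at 4.37 CPM (others 0.208 to 0.988), the vastus lateralis of collection E for Nrn1 at 3.87 CPM (others 0.518 to 1.72), the vastus lateralis of collection A for Hoxd11 at 0.578 CPM (others 0 to 0.12), the vastus lateralis of collection A for Hand2 at 0.145 CPM (others 0 to 0), the vastus lateralis of collection E for Myo16 at 14.4 CPM (others 21.4 to 24.1) and the vastus lateralis of collection D for Vwf at 54.4 CPM (others 16.2 to 28). The part of these libraries in the results was not tested beyond the fits that leave out a collection.

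By the tested E18.5 minus adult difference, the log2 fold of vastus lateralis over gastrocnemius differed between the stages for 71 of the genes named. Over all genes tested it differed for 1458 of 15506 (9.40%). Some of the 71 were named because their stage difference was among the largest, so their count partly restates the naming rule. Among slow sarcomere genes the difference was 8.47 for Myoz2, 7.64 for Myl2, 7.56 for Myh7, 7.40 for Myl3, 7.34 for Tnni1, 6.92 for Tnnt1, 6.37 for Tnnc1, 4.89 for Myh7b, 2.76 for Mybpc1 and 2.58 for Casq2. Among fast and developmental sarcomere genes it was 2.65 for Pvalb, 2.44 for Actn3, 2.45 for Mybpc2, 0.92 for Casq1, 0.90 for Tnni2, 0.76 for Tnnc2, 0.72 for Tnnt3, 5.51 for Myh2, 1.40 for Myh4, 2.03 for Myh1, 1.73 for Xirp2, 0.77 for Acta1 and -1.90 for Actc1. For genes of metabolism and their regulators it was 2.69 for Gpd1, 0.92 for Pygm, 1.16 for Slc2a4, 0.73 for Slc16a3, 1.27 for Cycs, 1.77 for Cox7a1, 1.66 for Acsl1, 2.01 for Lpl, 2.20 for Ppara, 1.05 for Ppargc1a, 1.69 for Dio2, 2.22 for Plin4 and 3.13 for Car3. Position genes gave 3.66 for Alx4, 1.52 for Hoxa5, 2.04 for Hoxa6 and -1.80 for Hoxd10. Genes of nerve and synapse gave -1.46 for Nova1, -2.24 for Ntrk3, -2.96 for Grik2, -2.13 for Grik3, -4.85 for Dcx and 1.14 for Chrne. Signalling genes gave -4.44 for Gdf6, -1.03 for Acvr2a, 1.13 for Wnt4, 1.46 for Wnt11, 2.06 for Frzb, 1.32 for Plxna4, -2.84 for Crabp1 and 0.86 for H19. Myogenic, cell cycle and early response genes gave 0.81 for Myf6, -0.67 for Myod1, 0.74 for Des, -1.68 for Cdh4, -0.61 for Ccnd2 and 0.90 for Nr4a1. The others were 4.60 for Slc18a1, 3.05 for Eef1a2, 3.19 for Rpl3l, 4.45 for Aqp4, 3.28 for Cacna1i, 1.81 for Tmem52, -2.03 for Col8a1, -3.38 for Vat1l, -4.44 for Myo16, -4.85 for Dcx, -8.55 for Tmem132b and -4.56 for Kcns1.

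Between the E18.5 pairs, the fold of vastus lateralis over gastrocnemius minus that of vastus intermedius over soleus was -2.11 for Grik3 and -1.70 for Pla1a, by the tested difference.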

How the results depend on the processing

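The count of genes that differed between E18.5 vastus lateralis and gastrocnemius was 2537, and 1985 to 2835 without the replicate block, with DESeq2, limma-voom, no filter, RLE or upper-quartile scaling, or all 24 E18.5 libraries. Leaving out 1 collection gave 1676 (C) to 2456 (B). Chosen after seeing the data, collections C, D and E alone gave 868 and collections A, B and F alone 706, each with 3 embryos. Upper-quartile scaling gave 1517 higher of 2575. Vastus intermedius minus soleus gave 1492 genes, and 801 to 1501 with 1 collection left out. Adult vastus lateralis minus gastrocnemius gave 669, and 276 to 655 with 1 collection left out or, chosen after seeing the data, 771 without collections A and D. The difference between the pairs gave 2, and 8 without collection B. The stage difference gave 1458, and 1360 without E18.5 collection B or 1609 without adult collections A and D. With a collection left out 0 of 6 myosin shares could pass, since the smallest p that 5 embryos allow is 0.0625, and 4 passed with Myh6 and Myh7b in the sum.

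The fit without the replicate block gave 1985 genes for vastus lateralis minus gastrocnemius, 1111 for vastus intermedius minus soleus, 0 for the difference between the pairs, 531 in adults and 1116 for the stage difference. Without the block 19 of 128 named calls were lost, and Myl2, which did not pass either way, had 0.56 in place of -1.03; the cause was not tested.

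Of the 128 named calls 25 were lost in at least 1 of the fits that left out a collection, and the others held in all 6. The fit of all 24 libraries lost 22 of the named calls, DESeq2 2 and limma-voom 1. In the fit of all 24 libraries the slow sarcomere list had 1 gene lower and the Schwann cell list 2. Depth limits the genes near 0 counts in 1 muscle, Hand2, Hoxd11, Isl1 and Lhx9 at E18.5 and the slow sarcomere genes of adult vastus lateralis, whose fold sizes rest on few counts.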
